A study of Ovis aries with 6 samples.

Results

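Pericytes and vascular smooth muscle cells of the sheep rumen wall were taken from droplet single-nucleus RNA sequencing of the ventral sac. The gate took 516 of 40419 kept nuclei, which is 1.28% of them. A kept nucleus had at least 500 detected genes and at most 10% mitochondrial UMIs (unique molecular identifiers, each counting 1 captured transcript). A nucleus entered the gate with a UMI of at least 3 of the 6 genes RGS5, NOTCH3, PDGFRB, KCNJ8, ABCC9 and MYH11, including RGS5 or NOTCH3. It had to hold no UMI of RSPO3, HHIP, PTPRC or VWF, UMIs of at most 1 of the keratinocyte genes TP63, DSG1, DSC2 and COL17A1, and UMIs of at most 1 of the fibroblast genes PDGFRA, TWIST2 and FAP. These nuclei are called mural nuclei here.

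By its title the series is about supplementary feeding of sheep on pasture. Nuclei came from the rumen epithelium of 6 male lambs, 3 in the group MGHS and 3 in the group MGNS, with 1 library per animal. What the letters of MGHS and MGNS stand for is not written in the labels. Age is not given in the labels. The gate found 82, 98 and 109 mural nuclei in MGHS 1 to 3, and 36, 85 and 106 in MGNS 1 to 3. The labels call all nuclei rumen epithelial cells, whereas these 516 carried genes of the vessel wall.

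Mural cells wrap the endothelial tube of small vessels. Pericytes sit within the basement membrane of capillaries and share it with the endothelium, whereas vascular smooth muscle cells form contractile layers around arterioles and veins. Endothelial PDGF-B acting on the receptor PDGFRB recruits both, Notch ligands on neighbouring cells act on their NOTCH3 receptor, and an ATP-sensitive potassium channel of KCNJ8 and ABCC9 helps set the membrane potential of pericytes. Nitric oxide relaxes them through soluble guanylate cyclase and cyclic GMP, and beneath the rumen epithelium they regulate the blood flow that carries away absorbed nutrients.

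The 6 libraries held 8018 to 14366 barcodes and 34418856 to 59997793 UMIs. The median kept nucleus held 3974 to 5418 UMIs by animal, and the median mural nucleus 2828.5 to 4221 UMIs with 0.156 to 0.463% mitochondrial UMIs. Summed over mural nuclei, an animal had 150685 to 476155 UMIs, with MGNS 1 the lowest. Pairs of libraries shared 6 to 20 barcodes of kept nuclei, 0.0944 to 0.343% of the smaller library. Levels are given in CPM, the UMIs of a gene per 1000000 UMIs summed over an animal's nuclei of a class, as mean ± SD over animals. CPM is not corrected for gene length, so it is compared between classes or groups and not between genes.

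Among the genes that defined the gate, RGS5, which restrains G-protein signalling, was detected in 470 mural nuclei (91.1%) and ABCC9 in 444 (86%). NOTCH3 was detected in 384 (74.4%), PDGFRB in 338 (65.5%) and KCNJ8 in 289 (56.0%). MYH11, the heavy chain of smooth muscle myosin, was found in 158 (30.6%). These shares follow from the rule and are given as a description. RGS5 averaged 1300 ± 203 CPM over the 6 animals, and MYH11 averaged 243 CPM in mural nuclei against 975 CPM in subepithelial myofibroblasts.

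At the edge of the gate, 163 mural nuclei (31.6%) held exactly 3 of the 6 genes and 353 held at least 4. Another 120 nuclei met every other condition with exactly 2 genes. RGS5 averaged 895 CPM in the nuclei with exactly 3 genes, against 539 CPM in those just outside. ABCC9 averaged 981 CPM just inside and 405 CPM just outside, and KCNJ8 132 and 22.4 CPM. MYH11 averaged 452 CPM just inside and 539 CPM just outside. The nuclei just inside had median depths of 2431.5 to 3673 UMIs by animal and those just outside 2070 to 3003 UMIs.

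Of the 11 mural genes outside the gate listed as markers, all were detected. CSPG4, the NG2 proteoglycan of pericytes, averaged 45.7 ± 12.3 CPM in mural nuclei and 2.30 CPM in fibroblasts. The intermediate filament gene DES, which pericytes and muscle share, averaged 22 ± 8.64 CPM in mural nuclei, 0.708 CPM in fibroblasts, 1.77 CPM in myofibroblasts and 4.36 CPM in blood endothelial nuclei. Other genes often used for pericytes were missing or near 0. VTN and FOXS1 had no UMI in mural, fibroblast, myofibroblast or endothelial nuclei. CDH2 had none in mural nuclei, and the transcription factor TBX18 had 8 UMIs over all 516. Genes outside the gate are read from nuclei that the gate selected, so those that travel with MYH11 or with the excluded genes are not free of the rule.

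RNA of other cell types was present in the gated nuclei. The endothelial gene PECAM1 averaged 72.8 ± 30.1 CPM in mural nuclei, against 1700 CPM in endothelial nuclei, and FLT1 averaged 232 ± 112 CPM against 1729 CPM. The fibroblast gene LUM averaged 283 ± 58.9 CPM against 1201 CPM in fibroblasts. The keratinocyte gene KRT5 averaged 50.8 ± 24.1 CPM against 730 CPM in keratinocyte nuclei, and was at 43.7 CPM in fibroblasts and 51.5 CPM in endothelial nuclei. The glial genes SOX10, S100B and CDH19 had no UMI.

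The share of mural nuclei among kept nuclei was compared between the groups over animals. It was 1.44% (Wilson 95% interval 1.16 to 1.79), 1.54% (1.27 to 1.88) and 1.26% (1.04 to 1.51) in MGHS 1 to 3. In MGNS 1 to 3 it was 0.771% (0.557 to 1.07), 1.08% (0.871 to 1.33) and 1.49% (1.23 to 1.79). The groups overlapped, since MGNS 3 stood above MGHS 1 and MGHS 3. The mean was 1.41% ± 0.145 in MGHS and 1.11% ± 0.359 in MGNS, a difference of 0.303 percentage points (two-sided exact permutation test, p = 0.3). With 3 animals against 3, the smallest p this test can give is 0.1. The difference was 0.133 percentage points without MGNS 1 and 0.491 without MGNS 3 (exact permutation test, p = 0.1, the smallest possible there).

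Because detection of marker genes depends on depth, the gate was also applied after every kept nucleus was thinned to 2000 randomly drawn UMIs, with shallower nuclei left out. The share was then 1.43, 1.38 and 1.49% in MGHS 1 to 3, and 0.576, 0.892 and 1.25% in MGNS 1 to 3. Here all 3 MGHS animals stood above all 3 MGNS animals, by 0.530 percentage points on average (two-sided exact permutation test, p = 0.1, the smallest it can give). The intervals cover counting error alone.

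Mural nuclei were set against 3 other classes of the rumen wall, chosen by gates of their own. Fibroblasts were 1478 nuclei with at least 2 of PDGFRA, TWIST2 and FAP, subepithelial myofibroblasts were 662 nuclei with both RSPO3 and HHIP, and blood endothelial cells were 1032 nuclei with VWF and at least 1 more of PECAM1, CDH5 and FLT1. UMIs were summed per animal and class and tested with edgeR with the animal as a block, leaving out the genes of the gates. Against fibroblasts 2285 of 8061 genes (28.3%) passed at an adjusted p of 0.05, 13.5% higher and 14.9% lower in mural nuclei. Against myofibroblasts 1750 of 5912 (29.6%) passed, 14.5% higher and 15.1% lower, and against endothelial nuclei 2725 of 6743 (40.4%), 18.9% higher and 21.5% lower. Values with an SE below are log2 fold changes, mural over the other class, and each stood in the same direction in 6 of 6 animals unless another number is given.

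Genes known from pericytes but not used by the gate were mostly higher in mural nuclei. Against fibroblasts 18 of 24 tested were higher and 3 lower (ANPEP, PTN and PLXDC1), with a median log2 fold change of 2.24 against 0.02 over all genes tested. Against myofibroblasts 18 of 21 were higher and none lower (median 2.42, against 0.01 over all). Against endothelial nuclei 18 of 21 were higher and 2 lower (median 3.91, against -0.01 over all), and the 2 were the basement membrane collagens COL4A1 and COL4A2, which endothelial cells also make.

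The connexin gene GJC1, which forms gap junctions between mural cells, had 431, 584 and 767 CPM as its lowest, median and highest animal in mural nuclei, against 19.3, 30.2 and 64.8 CPM in fibroblasts. The lowest mural value stood above the highest fibroblast value, and the fold change was 3.97 ± 0.20 (SE). It was 1.56 ± 0.19 against myofibroblasts and 3.77 ± 0.16 against endothelial nuclei. EBF1, a transcription factor of stromal and B cells, had 6245, 7025 and 7849 CPM in mural nuclei, against 753, 1135 and 1930 CPM in fibroblasts. Its fold change was 2.58 ± 0.20 against fibroblasts, 6.58 ± 0.60 against myofibroblasts and 1.92 ± 0.16 against endothelial nuclei. The B cell genes MS4A1 and CD79A had 1 UMI each in mural nuclei.

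The laminin receptor subunit ITGA7 averaged 174 ± 27.1 CPM in mural nuclei and 0.494 CPM in fibroblasts, where it had 3 UMIs. It was higher by 3.92 ± 0.32 than in myofibroblasts and by 6.10 ± 0.24 than in endothelial nuclei. MCAM, the adhesion molecule CD146, had 89.0 to 218 CPM in mural nuclei, against 2.85 to 52.3 CPM in myofibroblasts (2.69 ± 0.25) and 2.58 to 37.5 CPM in endothelial nuclei (3.01 ± 0.39). HIGD1B, a mitochondrial protein gene used as a pericyte marker, averaged 132 ± 49.9 CPM in mural nuclei and had no UMI in myofibroblasts and 1 UMI in fibroblasts.

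**Figure D1:**
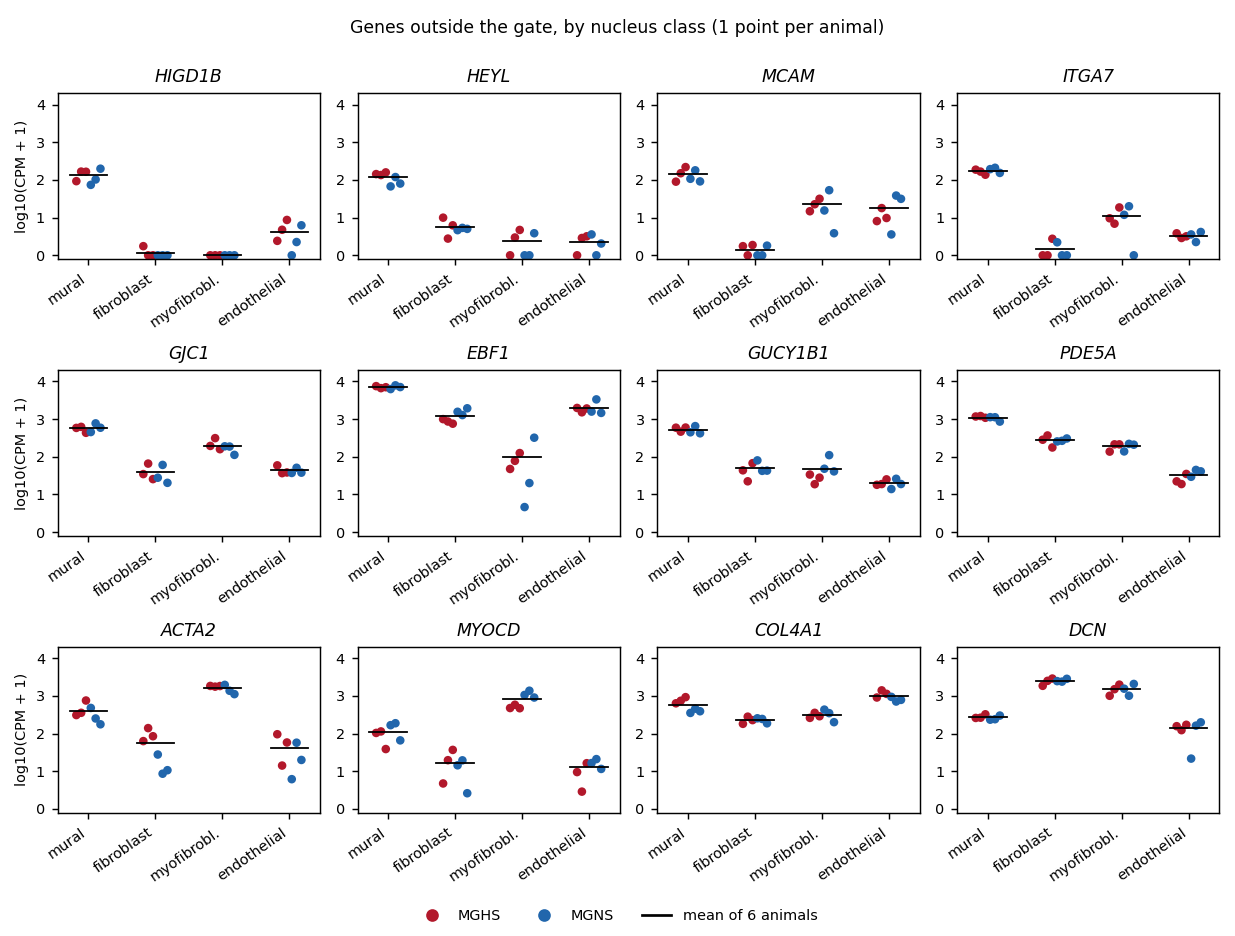
Levels of 12 genes in mural, fibroblast, myofibroblast and blood endothelial nuclei, on a scale of log10 of CPM plus 1, with a point per animal (MGHS red, MGNS blue) and a bar at the mean of the 6 animals. HEYL, GJC1 and GUCY1B1 lie higher in mural nuclei than in each other class, whereas ACTA2 lies between the myofibroblasts (mean 1641 CPM) and the other 2 classes.

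The contractile genes placed the mural nuclei between the other classes. Against fibroblasts 27 of 37 tested contractile genes were higher and 3 lower (median 1.11), and against endothelial nuclei 26 of 36 were higher and 6 lower (median 1.54). Against myofibroblasts only 6 of 39 were higher and 27 lower (median -1.38). Smooth muscle actin ACTA2 had 175, 332 and 752 CPM as its lowest, median and highest animal in mural nuclei, against 7.60, 44.4 and 139 CPM in fibroblasts and 1111, 1790 and 1958 CPM in myofibroblasts. No mural value overlapped those of either class, with fold changes of 3.08 ± 0.49 against fibroblasts and -2.25 ± 0.20 against myofibroblasts.

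TAGLN, the actin-binding protein SM22, followed the same order at 2.62 ± 0.19 and -1.69 ± 0.19. The myosin light chain MYL9 stood at 2.84 ± 0.20 and -0.83 ± 0.15. MYOCD, the coactivator that switches on smooth muscle genes, averaged 112 ± 57.2 CPM in mural nuclei, 15.3 CPM in fibroblasts and 809 CPM in myofibroblasts, a fold change of -2.93 ± 0.22 against the myofibroblasts. Its rise against fibroblasts, 2.88 ± 0.60, did not pass when the gate needed at least 4 of 6 genes or left out MYH11 (highest adjusted p 0.086 in edgeR).

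Several contractile genes of the visceral wall were lower in mural nuclei than in myofibroblasts. Of 7 tested genes listed for visceral muscle, 5 were lower (GREM1, ACTG2, CHRM3, KCNMB1 and NPNT) and 1 higher (BMP5) than in myofibroblasts (median -1.10). Against fibroblasts 4 of 8 were higher and 1 lower (median 0.57), and against endothelial nuclei 4 of 7 were higher and 1 lower (median 2.30). The enteric actin ACTG2 averaged 12.2 ± 7.31 CPM in mural nuclei and 308 CPM in myofibroblasts (-4.69 ± 0.33), and calponin CNN1 averaged 11.4 ± 3.23 CPM and 99.1 CPM (-3.06 ± 0.29). The dystrobrevin gene DTNA stood at -3.78 ± 0.27. The 6 contractile genes that were higher than in myofibroblasts were MRTFA, PPP1R14A, CALD1, PPP1R12A, PLN and SORBS2. MRTFA, an actin-regulated coactivator of MYOCD targets, was higher by 0.93 ± 0.14, whereas PPP1R14A (0.78 ± 0.24) and CALD1 (0.60 ± 0.19) each lost significance in 4 of 13 alternatives. These included leaving out MGHS 1 (0.80), MGHS 3 (0.85) or MGNS 1 (0.71) for PPP1R14A, and MGHS 3 (0.48) or MGNS 2 (0.53) for CALD1.

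Calcium handling separated the mural nuclei from fibroblasts. Of 26 tested ion channel and calcium genes, 15 were higher and 2 lower than in fibroblasts, and 15 were higher and 3 lower than in endothelial nuclei, but 5 of 24 were higher and 10 lower than in myofibroblasts. TRPC4, a cation channel of the receptor-operated kind, averaged 993 ± 312 CPM in mural nuclei, 10.7 CPM in fibroblasts (6.54 ± 0.24), 91.5 CPM in myofibroblasts (3.93 ± 0.63) and 7.89 CPM in endothelial nuclei (7.37 ± 0.56). The calcium-activated chloride channel ANO1 was higher than in fibroblasts by 5.03 ± 0.24, the ryanodine receptor RYR2 by 5.74 ± 0.26 and phospholamban PLN by 3.43 ± 0.22. The potassium channel genes KCNMA1 (-4.54 ± 0.42) and KCNAB1 (-3.75 ± 0.20) were lower than in myofibroblasts.

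Genes of the nitric oxide and cyclic nucleotide pathway were mostly higher in mural nuclei than in each of the 3 classes. Of its genes, 19 of 26 tested were higher and 2 lower than in fibroblasts (median 1.20), 17 of 24 higher and 3 lower than in myofibroblasts (median 1.29), and 17 of 25 higher and 6 lower than in endothelial nuclei (median 2.65). GUCY1B1, a subunit of soluble guanylate cyclase, had 418, 526 and 649 CPM as its lowest, median and highest animal in mural nuclei. In fibroblasts it had 21.3, 42.2 and 79.1 CPM, in myofibroblasts 17.7, 36.3 and 109 CPM, and in endothelial nuclei 12.9, 17.9 and 25.0 CPM. The mural animals stood above all others, with fold changes of 3.49 ± 0.22, 3.72 ± 0.26 and 4.76 ± 0.16 against the 3 classes in that order.

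The partner subunit GUCY1A1 was higher by 1.03 ± 0.15, 2.11 ± 0.22 and 3.91 ± 0.25 against fibroblasts, myofibroblasts and endothelial nuclei. PDE5A, the phosphodiesterase that breaks down cyclic GMP, was higher by 2.00 ± 0.16, 2.51 ± 0.18 and 5.16 ± 0.25, and the cyclic GMP-dependent kinase PRKG1 by 1.01 ± 0.15, 1.72 ± 0.17 and 3.92 ± 0.18. These 4 genes, for synthesis, breakdown and effect of cyclic GMP, were higher in mural nuclei than in each other class. The adenylate cyclase ADCY5 averaged 162 ± 72.9 CPM in mural nuclei and 1.28 CPM in fibroblasts (6.60 ± 0.39).

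Receptors for vasoactive signals were mixed. Of 18 tested against fibroblasts, 6 were higher (ADORA2A, ADRA2B, EDNRB, RAMP1, P2RY14 and EDNRA) and 9 lower (median -0.64). The endothelin receptor EDNRA averaged 767 ± 68.0 CPM in mural nuclei, 282 CPM in fibroblasts (1.52 ± 0.26) and 21.7 CPM in endothelial nuclei (5.13 ± 0.28). In myofibroblasts it averaged 1016 ± 364 CPM, and the fold change of -0.39 ± 0.20 did not pass (edgeR adjusted p = 0.17), with 4 of 6 animals lower in mural nuclei. The second endothelin receptor EDNRB had 130, 288 and 438 CPM as its lowest, median and highest animal in mural nuclei, against 1.5, 4.99 and 12.2 CPM in fibroblasts (5.60 ± 0.44). The adrenergic receptor ADRA2B (4.18 ± 0.44) and the adenosine receptor ADORA2A (5.33 ± 0.51) were also higher than in fibroblasts.

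Notch pathway genes gave a small set of high values beside many that did not pass. Of 13 tested, 6 were higher than in fibroblasts (JAG1, HEYL, HEY2, NRARP, HES1 and NOTCH1) and 2 lower (NOTCH2 and RBPJ). HEYL, a transcriptional repressor that Notch induces, had 66.4 to 158 CPM in mural nuclei, against 1.78 to 8.97 CPM in fibroblasts (4.57 ± 0.26), 0 to 3.71 CPM in myofibroblasts (5.84 ± 0.37) and 0 to 2.58 CPM in endothelial nuclei (6.39 ± 0.35). The related HEY2 averaged 57.1 ± 31.7 CPM in mural nuclei and had 3 UMIs in fibroblasts. The ligand JAG1 was higher by 3.20 ± 0.15 than in fibroblasts and by 3.77 ± 0.23 than in myofibroblasts. The Notch-induced HES1 was higher than in fibroblasts by 2.71 ± 0.23.

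Among the PDGF ligands, PDGFA (4.98 ± 0.30) and PDGFC (2.22 ± 0.19) were higher and PDGFD (-4.38 ± 0.60) was lower than in fibroblasts. PDGFC averaged 517 ± 159 CPM in mural nuclei, 27.7 CPM in myofibroblasts (4.03 ± 0.23) and 56.1 CPM in endothelial nuclei (3.38 ± 0.43). Signals that act on endothelium also differed. Of 35 tested angiogenic genes 11 were higher and 16 lower than in fibroblasts (median -0.54). The Tie2 ligands ANGPT1 (1.16 ± 0.22) and ANGPT2 (3.87 ± 0.31) were higher than in fibroblasts, as was the ephrin EFNB2 (4.86 ± 0.27), whereas the chemokine CXCL12 was lower (-1.97 ± 0.19). The Tie2 receptor TEK itself was at 27.6 ± 13.0 CPM in mural nuclei, against 278 ± 45.8 CPM in endothelial nuclei (-3.42 ± 0.20).

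The matrix genes divided by kind. Fibrillar and interstitial matrix genes were lower than in fibroblasts for 31 of 40 tested and higher for 6 (median -1.90), and lower than in myofibroblasts for 23 of 37 and higher for 6 (median -0.92). Against endothelial nuclei 17 of 34 were higher and 5 lower (median 0.97). COL1A1 had 127, 205 and 420 CPM as its lowest, median and highest animal in mural nuclei, against 1031, 1895 and 2964 CPM in fibroblasts (-3.06 ± 0.17). The proteoglycan DCN averaged 269 ± 35.4 CPM in mural nuclei, against 2484 CPM in fibroblasts (-3.21 ± 0.15). The mural animals stood below every fibroblast animal for both genes.

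Of 25 basement membrane genes and their receptors, 13 were higher and 7 lower than in fibroblasts (median 0.83), and of 22 tested 12 were higher and 6 lower than in myofibroblasts (median 0.87). COL4A1 (1.29 ± 0.19), COL4A2 (1.09 ± 0.15) and LAMA4 (1.81 ± 0.22), the laminin chain of vessels, were higher than in fibroblasts. The laminin chain LAMA2 went the other way, with 327 ± 236 CPM in mural nuclei and 4582 CPM in fibroblasts (-4.06 ± 0.39). The collagen-binding integrin ITGA1 was higher by 3.44 ± 0.19. TIMP3, a matrix-bound protease inhibitor, was higher than in fibroblasts by 1.08 ± 0.22 and than in myofibroblasts by 2.12 ± 0.16. Tenascin TNC averaged 28.3 CPM in mural nuclei and 2036 CPM in myofibroblasts (-6.38 ± 0.34).

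**Figure D2:**
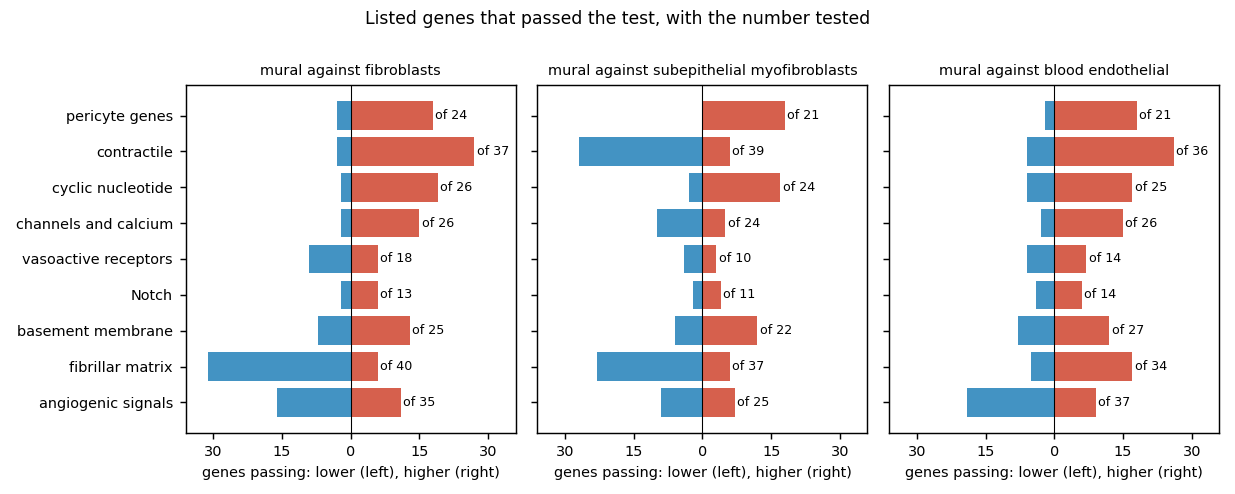
Numbers of listed genes that passed the edgeR test (adjusted p under 0.05) lower or higher in mural nuclei against fibroblasts, myofibroblasts and blood endothelial nuclei, by gene list. The pericyte and cyclic nucleotide lists lie mostly on the higher side in all 3 comparisons, whereas the contractile list turns to the lower side against myofibroblasts, with 27 genes lower and 6 higher.

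Transcription factors of mesenchyme were split, 11 of 28 tested higher and 8 lower than in fibroblasts. MEF2C, which partners MYOCD-type coactivators in muscle, was higher by 3.95 ± 0.18, NR2F2, a regulator of venous identity, by 3.30 ± 0.29 and TBX2 by 1.56 ± 0.16. Hypoxia-inducible EPAS1 averaged 451 ± 62.0 CPM in mural nuclei and 77.6 CPM in myofibroblasts (2.49 ± 0.15). Of the insulin-like growth factor genes, 4 of 19 were higher and 9 lower than in fibroblasts. IGFBP7 was higher than in fibroblasts (2.02 ± 0.14) and myofibroblasts (3.23 ± 0.17). IGFBP5 averaged 134 ± 54.9 CPM in mural nuclei, 35.4 CPM in fibroblasts (1.87 ± 0.24) and 285 CPM in myofibroblasts (-1.16 ± 0.19).

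Of 17 tested inflammation genes, 9 were higher and 1 lower than in myofibroblasts (median 0.71), and against fibroblasts 4 of 29 were higher and 6 lower (median 0.08). Against endothelial nuclei 5 of 24 were higher and 12 lower (median -0.58). The receptor LIFR was at 334 ± 75.2 CPM in mural nuclei and 44.0 CPM in myofibroblasts (2.89 ± 0.19), but at 864 ± 254 CPM in endothelial nuclei (-1.33 ± 0.20).

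The widest differences by the naming rule included genes not known chiefly for vessels. The alpha-T-catenin gene CTNNA3 had 2640, 5022 and 8273 CPM as its lowest, median and highest animal in mural nuclei, against 7.48, 10.3 and 16 CPM in fibroblasts (8.89 ± 0.26). It was also higher than in myofibroblasts (8.02 ± 0.41) and endothelial nuclei (6.81 ± 0.58). LRRTM3 averaged 281 ± 202 CPM, RERGL 262 ± 105 CPM and SEMA5B 169 ± 33.6 CPM in mural nuclei, with 2 or 3 UMIs each in all fibroblasts. FHL5, a LIM-domain cofactor, averaged 164 ± 72.7 CPM in mural nuclei with 4 UMIs in fibroblasts.

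The latrophilin ADGRL3 averaged 2014 ± 571 CPM in mural nuclei and 12.5 CPM in endothelial nuclei (7.28 ± 0.31), and the matrix protein gene FREM2 403 ± 172 CPM and 1.64 CPM (7.78 ± 0.32). On the other side, the lysophosphatidic acid receptor LPAR1 averaged 7.62 CPM in mural nuclei and 683 CPM in fibroblasts (-6.47 ± 0.31), and the adhesion molecule CADM2 9.09 CPM and 876 CPM (-6.55 ± 0.24). The BMP antagonist GREM1 averaged 7.80 CPM in mural nuclei and 1473 CPM in myofibroblasts (-7.60 ± 0.25). The endothelial receptor ADGRL4 averaged 42.4 CPM in mural nuclei and 1963 CPM in endothelial nuclei (-5.52 ± 0.29).

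The mural nuclei were not uniform. MYH11 without KCNJ8 and ABCC9 was found in 52 nuclei (10.1%), 5 to 12 per animal, and KCNJ8 or ABCC9 without MYH11 in 347 (67.2%), 22 to 80 per animal. Another 106 (20.5%) held both kinds and 11 (2.13%) neither. The MYH11 nuclei had median depths of 2735 to 3771 UMIs by animal and the KCNJ8 or ABCC9 nuclei 2795.5 to 4168 UMIs. The subsets are defined by these 3 genes, so only other genes were tested, with the animal as a block. Of 1384 genes tested, 272 passed (19.7%), 131 higher (9.47%) and 141 lower (10.2%) in MYH11 nuclei, and the median over all was -0.05.

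Contractile genes were higher in MYH11 nuclei for 14 of 22 tested and lower for none (median 1.5). ACTA2 had 694, 1280 and 1862 CPM as its lowest, median and highest animal in MYH11 nuclei, against 16.3, 115 and 481 CPM in KCNJ8 or ABCC9 nuclei. The subsets did not overlap, and the log2 fold change was 3.36 ± 0.39 (SE). TAGLN (2.51 ± 0.27), tropomyosin TPM1 (2.45 ± 0.26), PLN (1.83 ± 0.28), MYL9 (1.71 ± 0.28) and RYR2 (1.67 ± 0.21) were higher in 6 of 6 animals. ACTA2 averaged 1333 ± 465 CPM in MYH11 nuclei beside 1641 ± 329 CPM in myofibroblasts, a difference that was not tested.

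Of 16 channel and calcium genes, 6 were higher and 2 lower in MYH11 nuclei. The potassium channel subunit KCNAB1 had 209, 600 and 1598 CPM as its lowest, median and highest animal in MYH11 nuclei, against 0, 11.6 and 37.3 CPM in KCNJ8 or ABCC9 nuclei (5.53 ± 0.41). The sodium-calcium exchanger SLC8A1 (3.03 ± 0.24) and the calcium channel subunit CACNB2 (2.32 ± 0.23) were higher, and the cation channels TRPC4 (-1.47 ± 0.36) and TRPC1 (-1.38 ± 0.27) were lower. The alpha-1A adrenergic receptor ADRA1A, which mediates constriction by noradrenaline, was higher by 2.02 ± 0.44 in MYH11 nuclei. The phosphodiesterase PDE3A (1.21 ± 0.17) and the G-protein regulator RGS6 (1.83 ± 0.18) were higher, and PDE1C was lower (-2.69 ± 0.36).

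The ligands JAG1 (1.66 ± 0.28) and PDGFC (2.32 ± 0.26) were higher in MYH11 nuclei. The basement membrane collagens divided, with COL4A5 (2.70 ± 0.29) and COL4A6 (3.16 ± 0.28) higher and COL4A1 (-1.24 ± 0.25) and COL4A2 (-1.06 ± 0.31) lower. The genes COL4A5 and COL4A6 lie head to head and share a promoter region in mammals. Other large increases were in SPARCL1 (4.76 ± 0.39), a matricellular protein gene, the calcineurin regulator RCAN2 (4.3 ± 0.34), the diacylglycerol kinase DGKB (4.44 ± 0.28) and LDLRAD4 (4.81 ± 0.31), a brake on TGF-beta signalling.

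KCNJ8 or ABCC9 nuclei held more fibrillar matrix RNA, with 12 of 15 tested genes lower in MYH11 nuclei and none higher (median -1.43). The 5 tested fibroblast markers, COL1A1, LUM, COL1A2, COL3A1 and DCN, which the matrix list also holds, were all lower in MYH11 nuclei (median -1.72), and the part of fibroblast RNA in this difference was not tested. COL3A1 did not pass without MGHS 2 (-1.04), MGHS 3 (-0.98) or MGNS 2 (-0.97). Periostin POSTN had 0, 85.8 and 240 CPM as its lowest, median and highest animal in MYH11 nuclei, against 667, 1252 and 1475 CPM in KCNJ8 or ABCC9 nuclei (-3.61 ± 0.34). SPARC (-2.25 ± 0.40), COL1A1 (-2.21 ± 0.48) and TGFB2 (-1.81 ± 0.33) were also lower. COLEC12, a scavenger receptor, averaged 15.8 CPM in MYH11 nuclei and 610 ± 232 CPM in KCNJ8 or ABCC9 nuclei, with 3 UMIs in all MYH11 nuclei. The guidance receptor ROBO1 was lower by 3.23 on the log2 scale (-3.23 ± 0.44).

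Pericyte genes outside the gate were higher for 1 of 11 tested, ADIRF (1.92 ± 0.30), and lower for 6 (ITGA1, COL4A1, GUCY1B1, EBF1, COL4A2 and PDE5A) in MYH11 nuclei. ITGA1 stood at -1.13 ± 0.22 and GUCY1B1 at -1.04 ± 0.25, each lower in 6 of 6 animals. When all 158 nuclei with MYH11 were set against all without, these 6 pericyte genes and COL1A1, TGFB2 and COL3A1 no longer passed, an alternative chosen after seeing the data. COL4A2 did not pass without MGHS 2, MGHS 3, MGNS 2 or MGNS 3 (-1.06 to -0.94), nor PDE5A without MGHS 1, MGHS 2, MGNS 1 or MGNS 3 (-0.84 to -0.67). EBF1 (-0.53 ± 0.14) did not pass without MGHS 2 (-0.51) or MGNS 3 (-0.45), and changed sign when no more than 10 UMIs of a gene were counted in a nucleus.

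**Figure D3:**
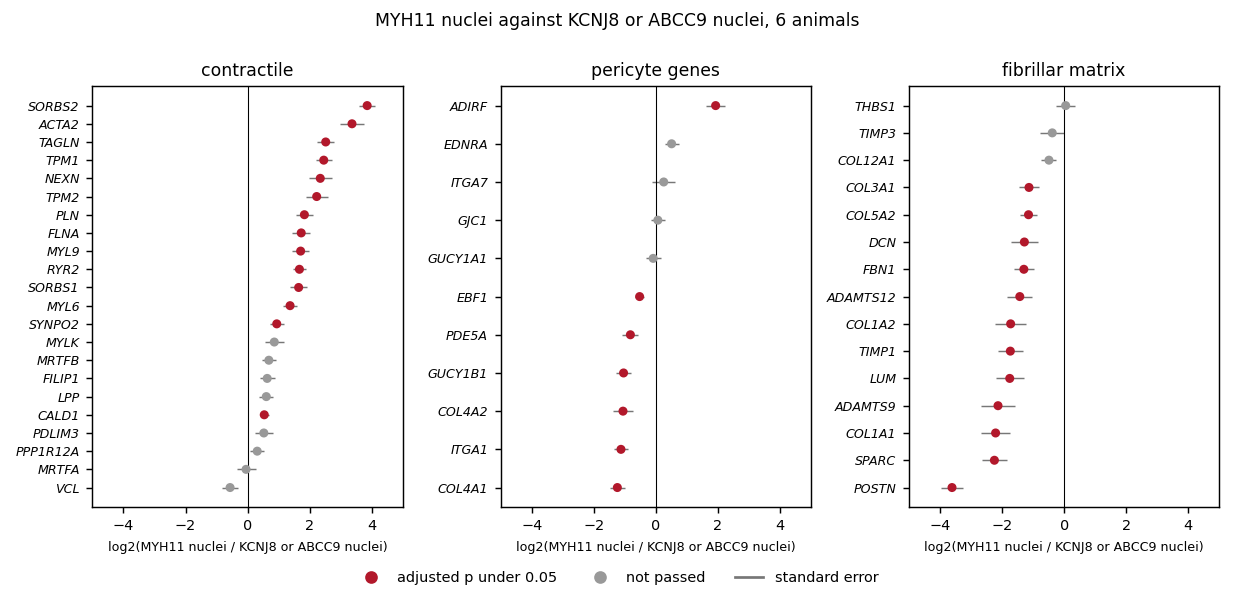
Log2 fold changes with SE of tested contractile, pericyte and fibrillar matrix genes, MYH11 nuclei over KCNJ8 or ABCC9 nuclei of the same 6 animals. The contractile genes lie mostly to the right of 0 (median 1.5) and the fibrillar matrix genes mostly to the left (median -1.43).

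The share of mural nuclei with a MYH11 UMI, a description of how the gate was met, was 25.6, 31.6 and 44.0% in MGHS 1 to 3 and 33.3, 27.1 and 21.7% in MGNS 1 to 3. After thinning to 2000 UMIs it was 21.3, 23.8 and 31.1% in MGHS, and 25.7, 18.1 and 8.99% in MGNS. The groups overlapped, with means of 25.4% ± 5.10 in MGHS and 17.6% ± 8.37 in MGNS (two-sided exact permutation test, p = 0.3). The difference of 7.83 percentage points was 4.98 without MGHS 3, 11.9 without MGNS 1 and 3.53 without MGNS 3. Thinning kept 75 of 82, 84 of 98 and 106 of 109 nuclei in MGHS 1 to 3, and 35 of 36, 83 of 85 and 89 of 106 in MGNS 1 to 3. Keratinocyte nuclei, which should lack MYH11, had it in 2.34% ± 0.576 in MGHS and 1.24% ± 0.300 in MGNS after thinning, and in 7.33% and 3.85% before it. Their median depth was 9157.5 to 11372.5 UMIs by animal.

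The 2 groups of lambs were compared by gene over the summed UMIs of mural nuclei, 3 animals against 3. The collagen COL3A1, the laminin chain LAMA2 and the glutamate receptor GRM5 were higher, and HECW1, the complement gene C7 and the cytokine receptor OSMR were lower in MGHS. In all, 40 of 6140 genes passed in edgeR (0.651%), 25 higher (0.407%) and 15 lower (0.244%), and 685 (11.2%) had an unadjusted p under 0.05. Genes of the gate were not left out here, and the gate gene DSC2 was among the 25 higher (2.06 ± 0.34). All 40 had groups that did not overlap, which was the case for 1062 of all genes tested (17.3%), 434 higher (7.07%) and 628 lower (10.2%). The count rested on single libraries, at 14 without MGNS 1, 10 without MGNS 2, with 7 of the 40 among them, and 95 without MGNS 3. Of the genes named below, A2M, LYPD2, CA1, HECW1, C7 and OSMR passed with any 1 animal left out, and each of the others that passed did not pass without at least 1 animal, given with the gene, and kept its direction there.

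Markers of 3 other cell types moved with the groups in the same nuclei. The sums for T or NK cell, B cell, macrophage and dendritic, neutrophil and myofibroblast markers overlapped between the groups. So did those for lymphatic, glial and cycling markers (two-sided exact permutation test, p = 0.2 to 0.9 over these lists). Summed over 13 keratinocyte markers outside the gate, of which 12 had a UMI and KRT4 had none, mural nuclei held 1368 to 2873 CPM in MGHS and 372 to 1073 CPM in MGNS, whereas keratinocyte nuclei held 9549 to 15507 CPM. Summed over 12 fibroblast markers outside the gate, all detected, mural nuclei held 3198 to 3904 CPM in MGHS and 1548 to 1951 CPM in MGNS, and fibroblasts 17031 to 28292 CPM. The fibroblast sum includes COL3A1, COL1A1 and LAMA2, and the keratinocyte sum KRTDAP, which are among the genes that passed between the groups. Summed over 13 blood endothelial markers, all detected, with VWF at 0 by the rule, the ranges were 739 to 824 CPM in MGHS and 432 to 717 CPM in MGNS, and endothelial nuclei held 9085 to 12071 CPM. For each of the 3 sums the groups did not overlap (two-sided exact permutation test, p = 0.1, the smallest it can give). The median mitochondrial share of mural nuclei also moved with the groups, at 0.463, 0.342 and 0.397% in MGHS 1 to 3 and 0.332, 0.156 and 0.315% in MGNS 1 to 3, which did not overlap. The part of keratinocyte, fibroblast and endothelial RNA and of RNA quality in the differences between groups was not tested.

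Calls were also lost when nuclei were left out by other features. With doublets left out, A2M, LYPD2 (2.60), CA1 (1.87), GLUL, KRTDAP, FTL, CKB, ADAM12 and TRPC6 did not pass. Without nuclei holding PDGFRA, TWIST2 or FAP, those that did not pass included A2M, LAMA2, IGFBP3, RANBP3L, ADAM12, SEMA6D, RGS16 and TRPC6. Without nuclei holding a keratinocyte gene of the gate they included A2M, KRTDAP, FTL, CKB, IGFBP3, COL1A1, HPSE2, RANBP3L, ADAM12, KLHL29, SEMA6D, AFAP1L2 and TRPC6. Each kept its direction in these fits, of which the last 2 were chosen after seeing the data.

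**Figure D4:**
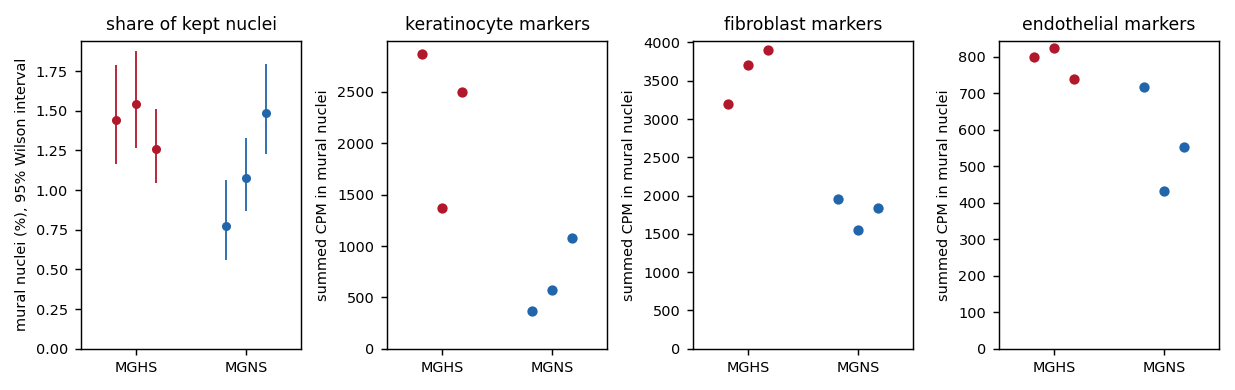
Share of mural nuclei with its Wilson 95% interval and the summed CPM of keratinocyte, fibroblast and blood endothelial markers in mural nuclei, a point per animal, MGHS left and MGNS right. The shares overlap between the groups, whereas each of the 3 marker sums is higher in all MGHS animals, the fibroblast sum at 3198 to 3904 CPM against 1548 to 1951 CPM.

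Of the 25 genes higher in MGHS, 13 lay below the level of keratinocyte nuclei in all 6 animals, among them KRT13, KRTDAP, CA1, LYPD2 and ROBO2. DSC2 is among the 13 too, but both gates use it, so its lower level in mural nuclei follows from the rules. Another 8 lay above the keratinocyte level in all 6 animals, namely GRM5, COL3A1, HPSE2, LAMA2, IGFBP3, COL1A1, RANBP3L and ADAM12, and 4 were mixed. Of the 15 lower genes, 14 lay above the keratinocyte level in all 6 animals. The same counts over all genes tested are not given here, so these counts are a description only. Carbonic anhydrase CA1 had 651, 953 and 1285 CPM in MGHS 1 to 3 and 173, 182 and 291 CPM in MGNS 1 to 3 (log2 fold change 2.18 ± 0.30). In keratinocyte nuclei it averaged 7083 CPM. KRT13, at 281 CPM in keratinocyte nuclei, had 36.2, 99.8 and 101 CPM in MGHS and 0, 8.25 and 16.9 CPM in MGNS. Ferritin light chain FTL (1.69 ± 0.34), creatine kinase CKB (2.23 ± 0.46) and ROBO2 (1.89 ± 0.31) belonged to the same set. ROBO2 averaged 643 CPM in keratinocyte nuclei but 2040 CPM in fibroblasts. In nuclei outside the mural, fibroblast, myofibroblast and endothelial gates it averaged 329 CPM in MGHS and 517 CPM in MGNS. There CA1, KRT13, FTL and CKB were higher in MGHS, as in mural nuclei. ROBO2 did not pass without MGNS 2 (1.79), KRTDAP without MGNS 1 (2.91) or MGNS 2 (2.89), and FTL without MGHS 1, MGHS 3, MGNS 1 or MGNS 2 (1.47 to 1.79). CKB did not pass without MGHS 3 or any MGNS animal (1.73 to 2.49), nor KRT13 without MGHS 2, MGHS 3, MGNS 1 or MGNS 2 (2.68 to 2.82).

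Collagen COL3A1 had 990, 1294 and 1594 CPM in MGHS 1 to 3 and 551, 319 and 469 CPM in MGNS 1 to 3. All MGHS animals were higher, by 1.59 ± 0.27 on the log2 scale (edgeR adjusted p = 0.020), and 15 of 19 alternatives passed. It did not pass without MGHS 3 (1.43) or MGNS 2 (1.39). COL1A1 was higher by 1.34 ± 0.26 and passed in 10 of 19 alternatives, but without any 1 animal other than MGHS 1 it did not (1.21 to 1.44), and COL1A2 was at 0.91 ± 0.25 without passing. LAMA2, the laminin chain of muscle and stroma, had 704, 499 and 336 CPM in MGHS and 126, 193 and 107 CPM in MGNS (1.88 ± 0.33), and did not pass without MGHS 1 (1.58) or MGNS 1 (1.82). It also did not pass without nuclei holding PDGFRA, TWIST2 or FAP (1.98, edgeR adjusted p = 0.10) or with at least 4 of 6 genes required (1.56, 0.11). These genes are fibroblast genes too, at 5822 CPM for COL3A1, 1976 CPM for COL1A1 and 4582 CPM for LAMA2 in fibroblasts. Nuclei outside the mural, fibroblast, myofibroblast and endothelial gates held COL3A1 at 499 CPM in MGHS and 212 CPM in MGNS. They held COL1A1 at 172 and 85.3 CPM and LAMA2 at 268 and 194 CPM, so the 3 means were higher in MGHS there too. The fibroblast marker sum holds these 3 genes, so it is no separate measure of fibroblast RNA beside them. Of 9 tested fibroblast markers, 9 lay above 0 and these 3 alone passed.

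Of 33 tested fibrillar matrix genes, 25 lay above 0 (median 0.33, against 0.01 over all genes tested), 7 had MGHS animals all above MGNS animals and 2 passed. Of 23 basement membrane genes, 16 lay above 0, 8 did not overlap on the higher side and 3 on the lower, and LAMA2 alone passed. Over all genes tested, 50.5% lay above 0, 7.07% did not overlap on the higher side and 10.2% on the lower. COL4A1 had 634, 740 and 924 CPM in MGHS and 352, 457 and 390 CPM in MGNS (0.97 ± 0.24, edgeR adjusted p = 0.10). COL18A1 was at 0.85 ± 0.25 without passing.

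Blood endothelial nuclei held IGFBP3 at 1151 CPM. In mural nuclei IGFBP3 had 626, 667 and 584 CPM in MGHS 1 to 3 and 285, 132 and 257 CPM in MGNS 1 to 3. Every MGHS animal stood above every MGNS animal (1.54 ± 0.29), and it passed in 9 of 19 alternatives, but not without any 1 animal other than MGNS 3 (1.26 to 1.74). PAPPA, the protease that frees insulin-like growth factors from their carriers, was lower, with 170, 152 and 166 CPM in MGHS and 411, 561 and 356 CPM in MGNS (-1.40 ± 0.25), and it too passed without MGNS 3 but not without any other animal (-1.44 to -1.18). IGFBP5 had 125, 218 and 96.6 CPM in MGHS and 186, 82.5 and 98.8 CPM in MGNS, which overlapped. The metabotropic glutamate receptor GRM5 had 225, 370 and 630 CPM in MGHS and 73.0, 88.0 and 76.3 CPM in MGNS (2.39 ± 0.35), and passed in 17 of 19 alternatives, the exceptions being without MGNS 1 (2.36) and without MGNS 2 (2.49).

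ADAM12, a membrane metalloprotease, was higher by 1.36 ± 0.28 in MGHS, RANBP3L by 1.64 ± 0.32 and HPSE2, a heparanase relative, by 2.57 ± 0.45. Without 1 animal, ADAM12 passed only when it was MGNS 3 (1.17 to 1.5 otherwise), RANBP3L did not pass without MGHS 1 or any MGNS animal (1.31 to 1.86), and HPSE2 not without MGHS 3, MGNS 1 or MGNS 2 (2.44 to 3.09). Nuclei outside the mural, fibroblast, myofibroblast and endothelial gates held HPSE2 at 16.3 CPM in MGHS and 2.76 CPM in MGNS. They held ADAM12 at 15.7 and 16.2 CPM, and RANBP3L at 1.25 and 0.620 CPM. Glutamine synthetase GLUL had 103, 89.3 and 96.6 CPM in MGHS and 19.9, 16.5 and 28.2 CPM in MGNS (2.16 ± 0.36), and did not pass without MGNS 1 (2.14) or MGNS 2 (1.96). A single nucleus held 24 of 37 GLUL UMIs in MGHS 1, 11 of 34 in MGHS 2 and 28 of 46 in MGHS 3. GLUL passed in 10 of 17 alternatives, and not with doublets left out (1.66), without nuclei over 10000 UMIs (1.10) or with no more than 10 UMIs counted per nucleus (1.70). The protease inhibitor A2M was among the genes that passed, with 1479, 1103 and 1376 CPM in MGHS 1 to 3 and 119, 68.8 and 79.1 CPM in MGNS 1 to 3 (3.98 ± 0.29, edgeR adjusted p = 1.8e-05).

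A single nucleus in each MGHS animal held most of the A2M UMIs, 442 of 532, 256 of 420 and 419 of 655 (83.1, 61.0 and 64.0%). Those 3 nuclei had 15203, 17740 and 12165 UMIs in all, whereas the top nucleus of an MGNS animal held 5 or 6 UMIs of A2M. The MGHS nuclei with these totals were also the top ones for KRT80, with 6 of 13, 24 of 37 and 24 of 34 UMIs. They were the top ones for DSC2 too, with 23 of 46, 33 of 78 and 9 of 62. KRT80 did not pass without MGHS 3, MGNS 1 or MGNS 2 (3.53 to 3.82). In MGHS 1 another nucleus, of 16333 UMIs, held 100 of 194 KRTDAP and 47 of 104 LYPD2 UMIs. For COL3A1 the top nucleus held 12.1, 7.30 and 3.56% in MGHS 1 to 3. A2M was the only 1 of the 40 genes with over 50% of its UMIs in 1 nucleus in all 3 animals of its higher group. With no more than 10 UMIs counted per nucleus its fold change was 1.86 (edgeR adjusted p = 0.011), and without nuclei over 10000 UMIs it was 2.26 (0.0018). It did not pass with doublets left out (2.76, adjusted p 0.48 in edgeR), without nuclei holding a keratinocyte gene of the gate (1.55, 0.19) or without those holding PDGFRA, TWIST2 or FAP (2.25, 0.089).

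A2M was detected in 56.1, 38.8 and 67.9% of mural nuclei in MGHS 1 to 3 and 25.0, 22.4 and 19.8% in MGNS 1 to 3. After thinning, the shares were 41.3, 32.1 and 49.1% in MGHS and 22.9, 14.5 and 11.2% in MGNS, and in keratinocyte nuclei 37.8, 16.9 and 42.7% in MGHS and 18.3, 17.9 and 20.2% in MGNS. The share in mural nuclei stood above that in keratinocyte nuclei, with the median depths given above, in MGHS 1 to 3 and MGNS 1 and below it in MGNS 2 and 3. Fibroblasts held A2M at 3250 CPM in MGHS and 2625 CPM in MGNS. Nuclei outside the mural, fibroblast, myofibroblast and endothelial gates held it at 2451 CPM in MGHS and 750 CPM in MGNS. A2M was thus higher in MGHS there too, and mural nuclei lay below those nuclei in every animal. The part of RNA from other nuclei in the A2M difference was not tested.

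Among the genes lower in MGHS, HECW1, C7 and OSMR passed in 19 of 19 alternatives. HECW1, a ubiquitin ligase, had 69.5, 99.8 and 69.3 CPM in MGHS 1 to 3 and 478, 754 and 302 CPM in MGNS 1 to 3 (-2.64 ± 0.34, edgeR adjusted p = 0.0076). Complement component C7 had 41.7, 55.1 and 18.9 CPM in MGHS and 372, 215 and 234 CPM in MGNS (-2.77 ± 0.37), and the complement protease C1R was lower by 1.52 on the log2 scale (-1.52 ± 0.28) but passed only without MGHS 1 when an animal was left out (-1.57 to -1.36 otherwise). C7 averaged 457 CPM in fibroblasts. In nuclei outside the mural, fibroblast, myofibroblast and endothelial gates C7 was lower in MGHS too, at 19.4 CPM against 60.5 CPM in MGNS. The oncostatin M receptor OSMR had 136, 99.8 and 143 CPM in MGHS and 411, 396 and 370 CPM in MGNS (-1.59 ± 0.24). For each of these genes the groups did not overlap.

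RGS16, a G-protein regulator, had 16.7, 13.1 and 67.2 CPM in MGHS and 206, 267 and 229 CPM in MGNS (-2.75 ± 0.47), and did not pass without MGHS 1, MGNS 1 or MGNS 2 (-2.81 to -2.47). DTX1, a ubiquitin ligase of the Notch pathway, was lower in MGHS at -2.40 ± 0.36 and passed in 18 of 19 alternatives, but not without MGNS 2 (-2.16). The histone deacetylase HDAC9 (-1.39 ± 0.23), the semaphorin SEMA6D (-1.52 ± 0.26), KLHL29 (-1.46 ± 0.26) and the adaptor AFAP1L2 (-1.42 ± 0.26) were lower in all 3 MGHS animals. HDAC9 did not pass without MGHS 1, MGNS 1 or MGNS 2 (-1.35 to -1.28), SEMA6D without MGHS 1, MGHS 2 or MGNS 2 (-1.48 to -1.36), and KLHL29 without MGHS 1, MGHS 3, MGNS 1 or MGNS 2 (-1.54 to -1.28). AFAP1L2 passed only without MGNS 3 when an animal was left out (-1.51 to -1.28 otherwise). The cation channel TRPC6, which carries calcium into vascular muscle, had 776, 698 and 424 CPM in MGHS 1 to 3 and 1500, 1856 and 3143 CPM in MGNS 1 to 3 (-1.73 ± 0.33), but it passed in 5 of 19 alternatives and in none that left out 1 animal (-1.93 to -1.36).

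**Figure D5:**
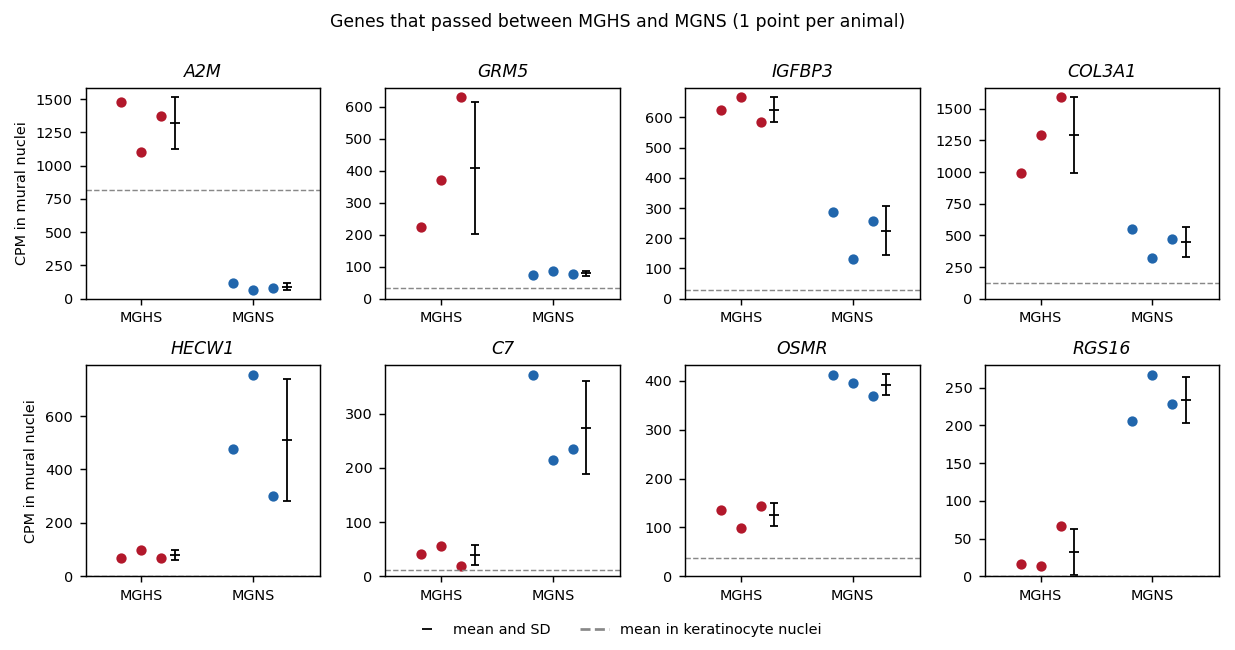
CPM in mural nuclei of A2M, GRM5, IGFBP3, COL3A1, HECW1, C7, OSMR and RGS16, a point per animal with mean ± SD, MGHS left and MGNS right, with the mean in keratinocyte nuclei as a dashed line. The groups do not overlap for any of the 8 genes, OSMR lying at 99.8 to 143 CPM in MGHS and 370 to 411 CPM in MGNS.

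Inflammation genes lay mostly below 0. Of 21 tested, 2 were above 0 (median -0.83, against 0.01 over all genes tested), 10 had MGHS animals all below MGNS animals, none the reverse, and OSMR alone passed. Over all genes tested, 10.2% did not overlap on the lower side and 7.07% on the higher. The chemokine CCL19 had 11.1, 26.3 and 16.8 CPM in MGHS and 790, 160 and 93.2 CPM in MGNS (-4.10 ± 1.10, edgeR adjusted p = 0.28). STAT3, which transmits the signal of OSMR, had 142, 155 and 174 CPM in MGHS and 319, 319 and 263 CPM in MGNS (-0.88 ± 0.23, edgeR adjusted p = 0.13). NFKBIA was at -0.95 ± 0.30, IL1R1 at -0.97 ± 0.33, TNFAIP3 at -1.34 ± 0.38 and RELB at -1.45 ± 0.45, and none of these passed.

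Selenoprotein and antioxidant genes lay the other way, 17 of 22 above 0 (median 0.36), with 5 not overlapping on the higher side, none on the lower and none passing. The shares over all genes tested were 7.07% on the higher side and 10.2% on the lower. SELENOW had 80.6, 73.5 and 79.8 CPM in MGHS and 59.7, 24.8 and 31.1 CPM in MGNS (1.19 ± 0.37, edgeR adjusted p = 0.22). Peroxiredoxin PRDX6 was at 1.43 ± 0.35, thioredoxin TXN at 1.33 ± 0.39 and GPX1 at 1.56 ± 0.50, with adjusted p of 0.11, 0.21 and 0.24 in edgeR.

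The pericyte, contractile, Notch, vasoactive receptor and angiogenic lists held no gene that passed. The cyclic nucleotide list held RGS16 and the channel and calcium list TRPC6, which both passed as lower in MGHS. RANBP3L, higher in MGHS, averaged only 0.453 CPM in fibroblasts, 0.287 CPM in myofibroblasts and 1.80 CPM in endothelial nuclei. None of 23 pericyte genes outside the gate passed, and 4 did not overlap on the higher side and 1 on the lower, beside 7.07% and 10.2% of all genes tested. HEYL had 142, 134 and 158 CPM in MGHS and 66.4, 118 and 79.1 CPM in MGNS (0.72 ± 0.27, edgeR adjusted p = 0.33). None of 36 contractile genes passed (median 0.16), and ACTA2 overlapped at 309, 354 and 752 CPM in MGHS against 478, 250 and 175 CPM in MGNS (0.73 ± 0.43). None of 13 listed Notch, 12 vasoactive receptor and 25 angiogenic genes passed. DTX1, the Notch pathway gene that passed, is not on the Notch list. The prostaglandin receptor PTGER3 was at -2.64 ± 0.69 (edgeR adjusted p = 0.15) and PDE3A at -0.54 ± 0.22. PTGER3 passed in 3 of 18 alternatives.

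Whether the effect of group differed between mural nuclei and fibroblasts was tested as an interaction over the same animals. Of 9467 genes 5 passed (0.0528%), 2 with a higher effect in mural nuclei (0.0211%) and 3 with a lower one (0.0317%), and 609 (6.43%) had an unadjusted p under 0.05. Of the 40 genes that passed in mural nuclei, 2 passed here and 20 had an unadjusted p under 0.05, so for most of them a difference from fibroblasts was not shown. The 5 genes were A2M, ADAM12, IRAG1, MAP2 and DAB1.

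ADAM12 had 1118, 866 and 741 CPM in MGHS 1 to 3 and 246, 374 and 463 CPM in MGNS 1 to 3 in mural nuclei, but 50.8, 55.0 and 73.4 CPM in MGHS and 198, 106 and 194 CPM in MGNS in fibroblasts. The direction was opposite in the 2 classes, and the effects differed by 2.77 ± 0.41 on the log2 scale (edgeR adjusted p = 0.036). It did not pass without MGHS 2 (2.73) or without MGNS 3 (2.83). IRAG1, the target through which cyclic GMP kinase curbs calcium release, averaged 981 ± 130 CPM in MGHS and 946 ± 46.8 CPM in MGNS in mural nuclei, against 124 ± 14 and 28.6 ± 6.87 CPM in fibroblasts. The effects differed by -2.05 ± 0.30, which did not pass without MGHS 2 (-1.96). Mural levels overlapped between the groups, whereas fibroblast levels did not.

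The microtubule protein gene MAP2 gave a similar picture, with 659 ± 53.3 CPM in MGHS and 602 ± 69.3 CPM in MGNS in mural nuclei, and 208 ± 21.2 and 58.8 ± 7.18 CPM in fibroblasts. The effects differed by -1.66 ± 0.26, which did not pass without MGHS 2, MGHS 3 or MGNS 2 (-1.71 to -1.54). DAB1, a signalling adaptor, had 25.0, 23.6 and 27.3 CPM in MGHS 1 to 3 and 226, 49.5 and 67.8 CPM in MGNS 1 to 3 in mural nuclei, with MGNS 1 far above the rest (log2 effect -1.97, edgeR adjusted p = 0.17). In fibroblasts it averaged 17.4 ± 2.75 CPM in MGHS and 5.85 ± 1.29 CPM in MGNS. The effects differed by -3.48 ± 0.55, which did not pass without MGHS 2, MGHS 3 or MGNS 1 (-3.49 to -2.98). Contractile genes passed for none of 39 in this test, with 6 above 0 and a median of -0.61, against 0.02 over all genes tested.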

How the data were processed

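Nuclear RNA of 6 libraries was analysed, 1 per lamb. The authors deposited raw UMI counts for each gene and barcode, with no normalization. The file headers name Cell Ranger 8.0.0 as their source, whereas the submitters' processing notes name version 2.1.1, and the versions could not be reconciled. Neither the genome build nor the counting of reads shared by near-identical or overlapping genes is stated there. All 26741 gene numbers had a symbol in the RefSeq gene table of ARS-UI_Ramb_v3.0, from which names alone were taken.

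Members and gene lists were chosen with earlier results of these data known. Fibroblasts also lacked RGS5 and NOTCH3, and endothelial nuclei RGS5, PTPRC and PROX1. Keratinocyte nuclei (3929, for background) held at least 3 of TP63, DSG1, DSC2 and COL17A1. UMIs were summed per animal and class. Genes of the gates were left out of the class and subset tests and kept in the group and interaction tests. The sums were fitted in edgeR 4.0.16 (R 4.3.3) after filterByExpr at min.count 10 and TMM scaling, by the quasi-likelihood test with robust fitting, and p-values were adjusted over all genes tested by Benjamini-Hochberg, at 0.05. An SE is the log2 fold change over the square root of F. DESeq2 1.42.0 and limma 3.58.1 (voom) were alternatives. The 10 genes per direction past the threshold (smallest adjusted p between groups; largest fold change between classes, over 20 CPM and alike in 6 animals) were candidates for naming, with members of the lists. Scrublet in scanpy 1.11.5 called 646, 492 and 1020 doublets in MGHS 1 to 3 and 1, 599 and 833 in MGNS 1 to 3. In MGNS 1 the top 174 scores were used instead. Doublets were kept in the main results and left out in an alternative. Of mural nuclei, 4, 8 and 2 were doublets in MGHS and 1, 1 and 4 in MGNS. Shares were tested over animals by two-sided exact permutation. The tests were checked on simulated data.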

Additional observations from a re-analysis of the deposited data

Results flagged for a closer look

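The effect of group differed between mural nuclei and fibroblasts, by the interaction term in edgeR, for 5 genes. The difference of the log2 effects was 3.56 ± 0.29 (SE) for A2M, where it did not pass with doublets left out (1.93, adjusted p 0.86 in edgeR) or without nuclei holding a keratinocyte gene of the gate (0.97). It was 2.77 ± 0.41 for ADAM12, which did not pass without MGHS 2 or without MGNS 3, and -2.05 ± 0.30 for IRAG1, which did not pass without MGHS 2. For MAP2 it was -1.66 ± 0.26, and 12 of 15 alternatives passed. For DAB1 it was -3.48 ± 0.55, and 6 of 15 passed.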

How the results depend on the processing

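Of the values of single genes under the alternatives, 3541 kept their direction and side of the threshold, 244 no longer passed, 18 passed anew and 3 changed sign. The group comparison called 40 genes, and 83 in DESeq2, 289 with no filter on low counts, 21 with doublets left out and 14 with at least 4 of 6 genes required. In alternatives added after seeing the data it called 17 without nuclei holding a keratinocyte gene of the gate and 22 without those holding PDGFRA, TWIST2 or FAP. Leaving out 1 animal gave 10 to 95. The labels do not say whether replicate numbers pair the animals. Deviations from the group means correlated at 0.0004, -0.108 and -0.0014 for like numbers and at -0.074 to 0.076 for unlike numbers, which cannot settle it. With the replicate block 21 genes passed, 17 of them among the 40. The subset comparison gave 732 with no filter, 230 to 356 without 1 animal, and could not be fitted with at least 4 of 6 genes or without MYH11 in the gate. With no filter 2735 genes passed against myofibroblasts and 4284 against endothelial nuclei. The interaction gave 9 in DESeq2, 95 with no filter, 8 with doublets left out, 8 with at least 4 of 6 genes, 11 with 10 UMIs at most per nucleus, 31 without keratinocyte-gene nuclei, and 1 to 9 without 1 animal (1 without MGHS 2, 9 without MGNS 1). EBF1 between the subsets turned to 0.16 with 10 UMIs at most per nucleus, and IGFBP5 between groups, never called, to -0.022 without MGHS 2 (up to 0.74 without MGNS 1) and to -0.55 with at least 4 of 6 genes. The cause of these changes was not tested. MGNS 1 had the fewest mural nuclei, 36.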
